A study of Arabidopsis thaliana with 18 samples.

Results

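Genes for proteins of the large subunit of the cytosolic ribosome were followed in abci20 mutant seeds and in Col-0 seeds of Arabidopsis, both dry. The members were 57 probe sets, listed as known large-subunit genes, out of 27827 probe sets in all. Their measured values were not used to list them, but earlier results of these data were known. Each of the 57 was present, and 0 were dropped as copies with the same values on all arrays. The reference table of the TAIR10.1 assembly gives a symbol for 18 of the genes, and the other 39 are named by locus, with no role given beyond the family.

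The small subunit of a ribosome reads the message, and the large subunit joins the amino acids and lets the new protein leave through an exit tunnel. In Arabidopsis most large-subunit proteins are encoded by several close paralogs, and loss of some of them stops embryo growth or changes leaf and flower shape. A dry seed holds ribosomes and stored messages from maturation, and uses them when it takes up water.

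The 6 groups, with 3 arrays each, were abci20 polysomal, monosomal and total RNA and Col-0 polysomal, monosomal and total RNA, all from freshly harvested dry seeds. Polysomal RNA holds messages bound by several ribosomes, and monosomal RNA those bound by only one. Both genotypes belong to the Col-0 ecotype, and abci20 differs by a mutation in ABCI20 (AT5G02270), a member of the ABC transporter superfamily whose allele the labels do not name. Replicates were bulks of plants grown in randomized blocks, so each array averages several plants and every seed tissue, and fewer cells of a type cannot be told apart from less RNA per cell.

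Values were RMA log2 signals, in which a difference of 1 is a doubling, and their precision is limited by the number of arrays. ABCI20 had 2.37, 1.61 and 2.16 log2 on the abci20 polysomal arrays, against 4.23, 4.49 and 4.39 in Col-0, and its fitted change was -2.32 in polysomal, -2.40 in monosomal and -2.31 in total RNA (limma adjusted p = 0.00406, 0.00195 and 0.00151). Array abci20 total replicate 1 stood apart, with correlations over probe sets of 0.893 and 0.915 with the other abci20 total arrays, against 0.959 between those. The 11 seed markers, storage and late-embryogenesis genes, had group means from 8.68 to 12.37 log2 and summed levels from 14.67 to 15.36. Their genotype change was positive for 1 of 11 in polysomal, 2 in monosomal and 1 in total RNA, with medians of -0.15, -0.11 and -0.21. The 8 leaf markers had group means from 1.24 to 7.12 log2, group medians from 1.99 to 2.54 and summed levels from 7.06 to 7.64. The highest leaf marker mean in each group lay between 6.67 and 7.12. The genotype change of the leaf markers was positive for 6 of 8, 5 and 6 in the same order, with medians of 0.08, 0.05 and 0.37. Of either list, 0 genes passed the test between genotypes in any fraction, and the part of these cell types in the family's values was not tested. Paralogs of this family can share probe sequence, so signal may be shared between close copies.

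The family as a whole lay highest in monosomal RNA of abci20 seeds. Over the 57 genes, the median log2 signal was 7.41, 7.57 and 7.35 on the abci20 polysomal arrays, against 6.78, 7.17 and 7.10 on the Col-0 polysomal arrays. In monosomal RNA it was 7.94, 8.23 and 7.80 in abci20 and 7.11, 7.29 and 7.44 in Col-0. In total RNA it was 7.34, 7.54 and 6.88 in abci20 and 6.67, 7.11 and 7.07 in Col-0. The genotypes did not overlap in the polysomal and monosomal fractions, and in total RNA abci20 replicate 3 lay within the Col-0 range. Over all probe sets the array medians ran from 3.16 to 3.69.

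Most of the genes had the same highest group, and most had the same lowest group, while the full order of the groups was not compared. The abci20 monosomal group was highest for 40 of the 57 and the abci20 polysomal group for 13, whereas these groups were highest for 17.6% and 14.5% of all probe sets. The Col-0 total group was lowest for 35 of the 57 and for 14.1% of all probe sets. The 4 genes highest in another group were RPL10B and RPL16B in abci20 total RNA, RPL16A in Col-0 monosomal RNA and AT3G51190 in Col-0 polysomal RNA. The genes share their arrays, so these counts do not come from independent observations.

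**Figure D1:**
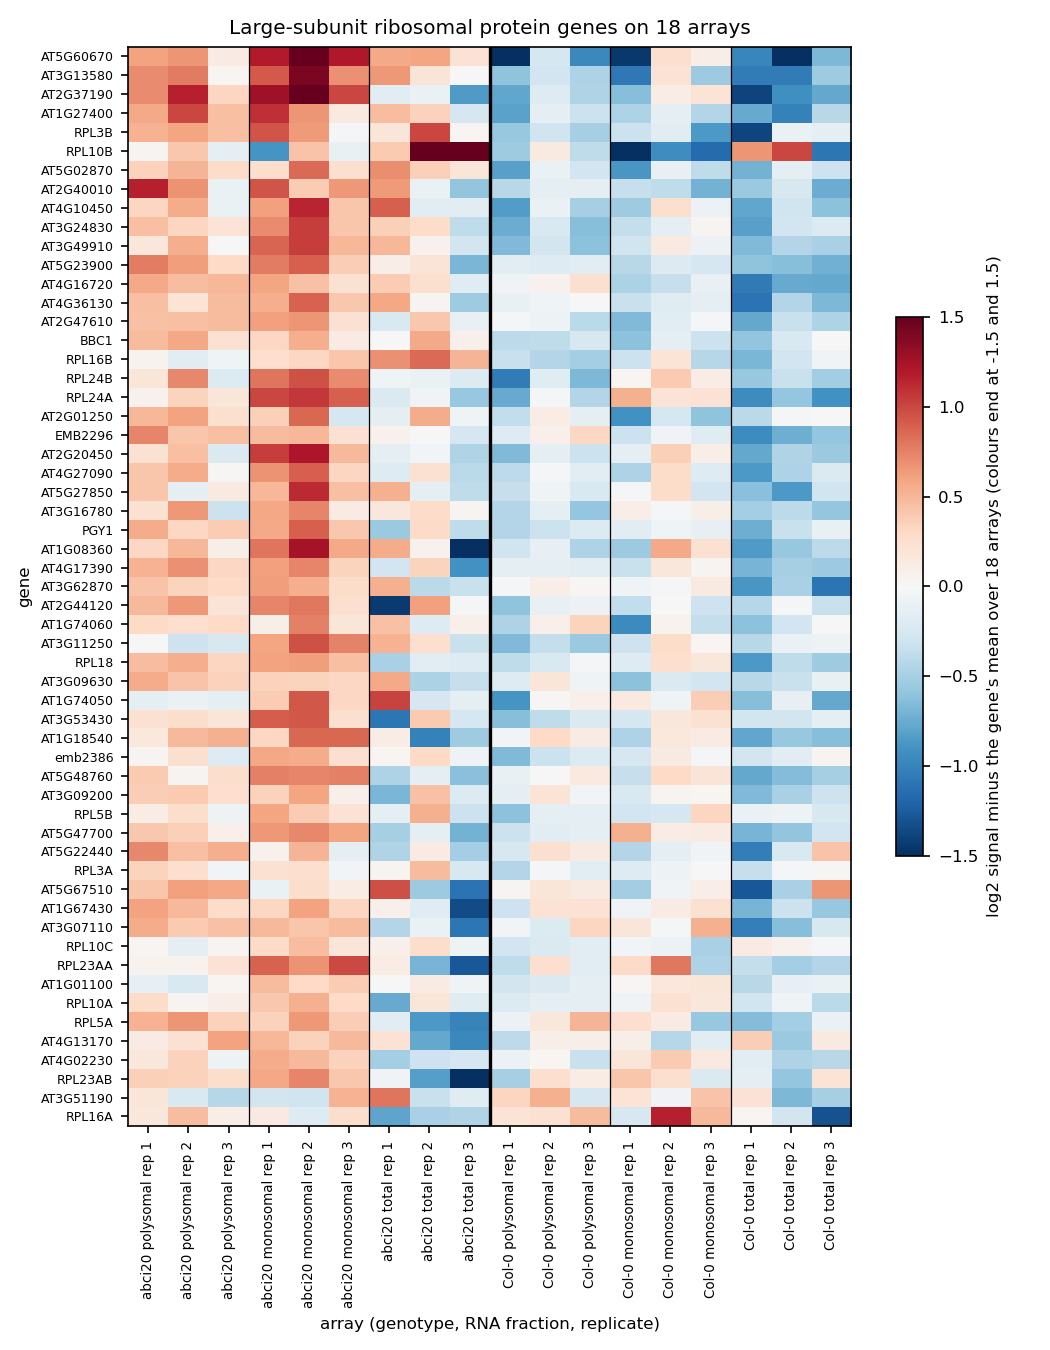
Log2 signal of each of the 57 genes (rows) on each of the 18 arrays (columns) minus that gene's mean over the arrays, with the abci20 arrays left of the Col-0 arrays and colours ending at -1.5 and 1.5. The abci20 monosomal arrays are the reddest block, with a median signal of 7.80 to 8.23, and the Col-0 total arrays are mostly blue, at 6.67 to 7.11.

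The genotype comparison asked how the messages of abci20 seeds differed from those of Col-0 in each fraction. The fitted change was positive for 55 of the 57 genes in polysomal RNA, 55 in monosomal RNA and 49 in total RNA, against 48.7%, 47.1% and 50.7% of all probe sets. The median change of the 57 was 0.47 in polysomal, 0.66 in monosomal and 0.34 in total RNA, beside -0.01, -0.03 and 0.01 over all probe sets. With single compared arrays left out, the medians ran from 0.39 to 0.53 in polysomal, 0.57 to 0.75 in monosomal and 0.23 to 0.53 in total RNA, where the 0.53 was without abci20 total replicate 3. Over the brighter probe sets, those whose highest group mean exceeded its median over all probe sets, which is a background added after seeing the data, the medians were 0.00, 0.05 and -0.08. Few genes passed singly: 0 in polysomal RNA, 4 higher in monosomal RNA and 3 higher in total RNA. The share of all probe sets that passed in either direction was 0.442%, 1.83% and 3.35% in these fractions, the share that passed as higher was 0.234%, 1.09% and 1.11%, and the share that passed as lower was 0.208%, 0.744% and 2.24%. With each array centred on its median, the median in total RNA was 0.20 for the family and -0.13 for all probe sets, and 42 of the 57 changes were positive. In the other fractions every scaling tried left 55 positive.

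In polysomal RNA, 0 of the 57 genes passed the adjusted threshold in limma, while 24 had an unadjusted p under 0.05, all of them higher, against 7.95% of all probe sets in either direction. The smallest p was that of AT2G37190, which had 7.35, 7.81 and 6.97 log2 on the abci20 arrays, against 5.86, 6.45 and 6.19 on the Col-0 arrays. All abci20 values lay above all Col-0 values. Its fitted change was 1.21 (SE 0.294, 2.31-fold, adjusted p = 0.0904). In a fit of the 6 compared arrays alone, 3 genes passed, beside 1.52% of all probe sets, and 2 passed when the brighter probe sets alone were tested, beside 1.90% of those.

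In monosomal RNA the 4 genes that rose were AT3G13580, AT2G37190, AT5G60670 and AT5G23900 (probe sets AT3G13580_at, AT2G37190_at, AT5G60670_at and AT5G23900_at). AT3G13580 had 6.46, 6.96 and 6.23 log2 in abci20, against 4.47, 5.76 and 5.0 in Col-0. AT2G37190 had 7.91, 8.14 and 7.64 in abci20 and 6.01, 6.75 and 6.85 in Col-0. Neither gene's genotypes overlapped, and the fitted changes were 1.47 (SE 0.311, adjusted p = 0.0226) for AT3G13580 and 1.36 (SE 0.294, adjusted p = 0.0251) for AT2G37190. AT5G60670 had 6.59, 7.55 and 6.60 in abci20, against 3.95, 5.65 and 5.5 in Col-0, and had the largest fitted change of the family in this fraction, 1.88 (SE 0.427, 3.68-fold, adjusted p = 0.0320). AT5G23900 had 8.56, 8.69 and 8.16 in abci20 and 7.37, 7.58 and 7.53 in Col-0, a change of 0.98 (SE 0.230, adjusted p = 0.0363). For both of these, the lowest abci20 array lay above the highest Col-0 array, although AT5G60670 was low on Col-0 replicate 1 alone.

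The number of genes past the threshold in monosomal RNA rested on single arrays: it was 0 without abci20 monosomal replicate 1, abci20 monosomal replicate 2 or Col-0 monosomal replicate 1, and 1 without Col-0 monosomal replicate 3. Without abci20 total replicate 1 in the shared spread it was 9, and in a fit of the compared arrays alone it was 0. The shares of all probe sets that passed in these refits are not given here. The counts show only how the calls moved and are not a result about the family.

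In total RNA the 3 genes that rose were AT4G16720, RPL16B and AT3G13580. AT4G16720 had 10.32, 10.18 and 9.76 log2 in abci20, against 8.88, 9.18 and 9.17 in Col-0. RPL16B, which in other species (as L11) helps to hold the 5S RNA in the large subunit, had 6.33, 6.49 and 6.15 in abci20, against 4.96, 5.35 and 5.59 in Col-0. AT3G13580 had 6.19, 5.74 and 5.55 in abci20, against 4.49, 4.49 and 5.01 in Col-0. None of the 3 overlapped between genotypes, and AT3G13580 was the one gene that passed in both monosomal and total RNA. Their fitted changes were 1.01 (SE 0.197, adjusted p = 0.00991), 1.02 (SE 0.208, adjusted p = 0.0129) and 1.17 (SE 0.311, adjusted p = 0.0480), in that order. AT4G16720 passed whichever compared array was left out, with adjusted p from 0.00667 to 0.0482. RPL16B passed in 5 of the 6 such fits (adjusted p from 0.0120 to 0.0638), and AT3G13580 passed in 0 of them (adjusted p from 0.0535 to 0.134). AT3G13580 also missed the threshold with arrays centred on their medians (adjusted p = 0.105). The family's count was 5 when abci20 total replicate 3 was left out. It was 4 when replicate 1 of that group was, 3 higher and 1 lower, beside 9.49% of all probe sets passing. It was 1 without Col-0 total replicate 1, 8 under quantile normalization, and 0 in a fit of the 6 compared arrays alone. The shares of all probe sets under these last settings are not given here, so these counts show only how the calls moved.

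Counted by whether the arrays of the genotypes overlapped, 41 of the 57 genes were higher on every abci20 array in polysomal RNA, 45 in monosomal RNA and 18 in total RNA. The same held for 10.3%, 9.52% and 6.76% of all probe sets. In no fraction did any of the 57 lie lower on every abci20 array, as 11%, 10.3% and 10% of all probe sets did in polysomal, monosomal and total RNA. Across fractions, 14 genes were higher without overlap in all 3 fractions, 25 in 2 fractions, 12 in 1 and 6 in 0, against 1.56%, 3.95%, 14.0% and 80.5% of all probe sets; 5.50% of them were so in 2 or 3 fractions. The 14 were RPL3B, RPL16B, RPL24A, EMB2296, BBC1, AT5G02870, AT3G13580, AT2G47610, AT3G62870, AT4G10450, AT5G60670, AT4G16720, AT1G27400 and AT3G49910. The 6 with overlap in every fraction were RPL3A, RPL16A, RPL23AA, AT1G74050, AT3G51190 and AT4G02230. Across the 57 genes, the fitted changes in polysomal and monosomal RNA correlated at Pearson r = 0.795, against 0.520 over all probe sets. Those in total RNA correlated less, at 0.459 with polysomal RNA, near the 0.431 of all probe sets. With monosomal RNA they correlated at 0.579, against 0.353. Rank (Spearman) correlations of the 57 genes were lower, at 0.658 for polysomal with monosomal RNA. They were 0.414 for total with polysomal RNA and 0.561 for total with monosomal RNA. No array is shared between these fractions, but the seed bulks may be.

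**Figure D2:**
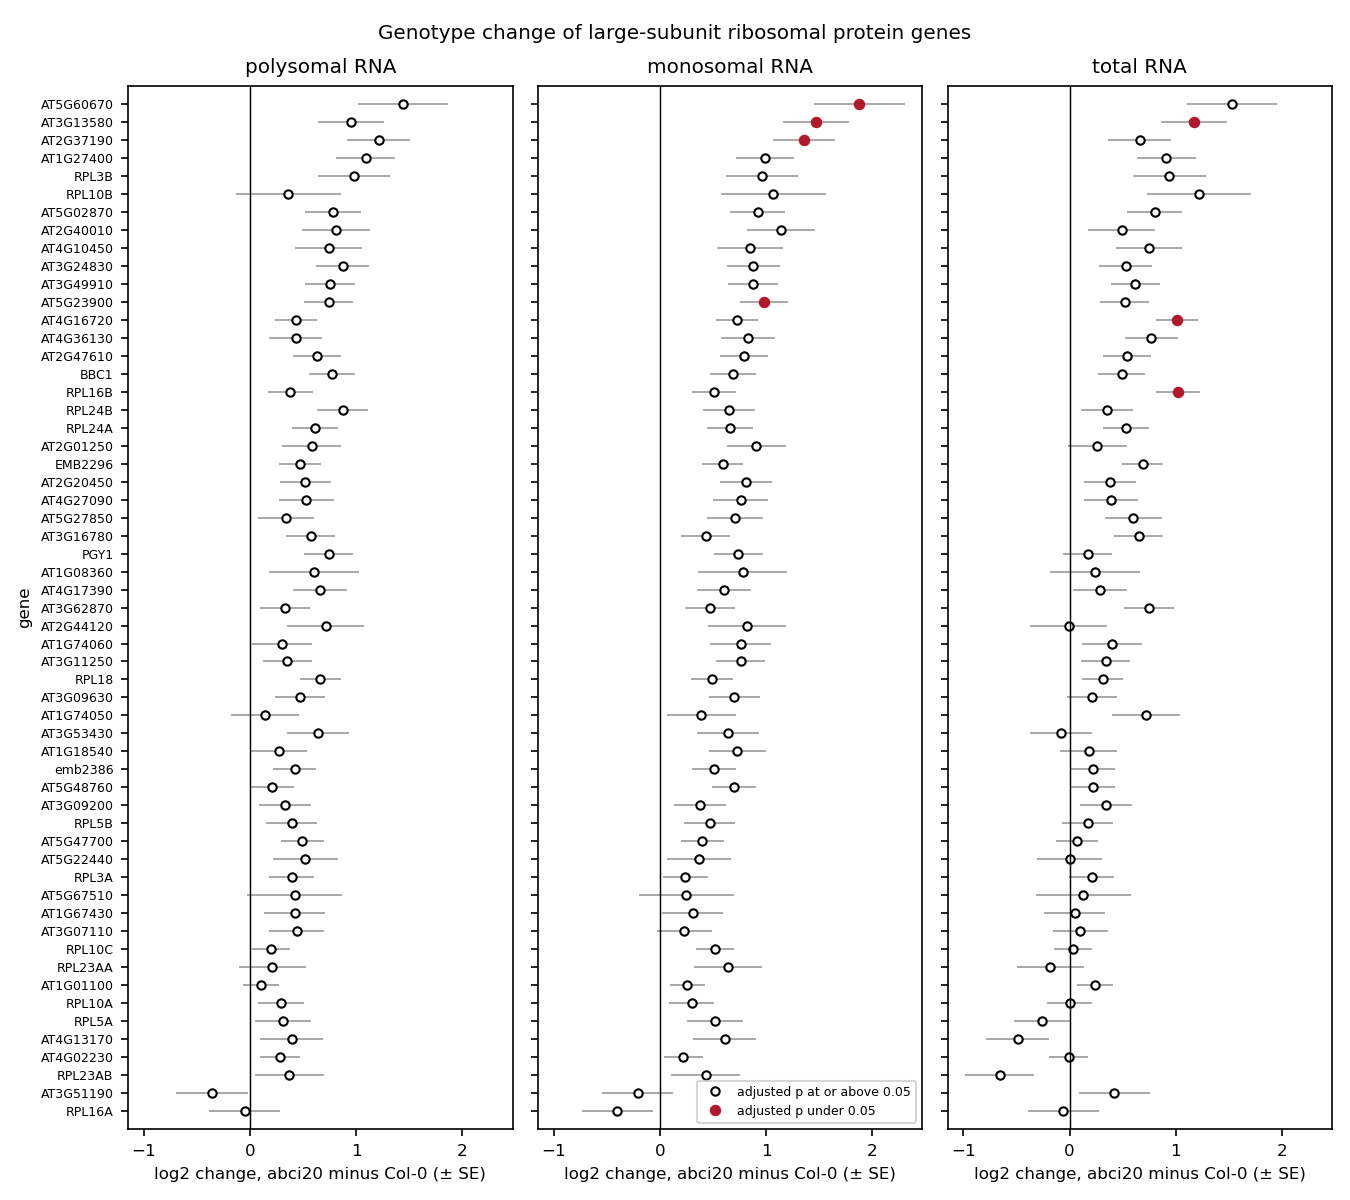
Fitted log2 change, abci20 minus Col-0, with its standard error for each of the 57 genes in polysomal, monosomal and total RNA, sorted by the mean of the 3 changes; filled points passed the adjusted threshold of 0.05. Points lie right of 0 for 55, 55 and 49 genes, and 0, 4 and 3 are filled.

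The paralogs of RPL3, which lies near the site of peptide bond formation, are named first among the genes with a known role. RPL3B had 5.72, 5.80 and 5.65 log2 in abci20 polysomal RNA, against 4.63, 4.91 and 4.70 in Col-0. It was also higher without overlap in the other fractions, with fitted changes of 0.98 in polysomal, 0.96 in monosomal and 0.94 in total RNA (SE 0.341 each, adjusted p = 0.341, 0.171 and 0.148). RPL3A, an embryo-defective locus, had 9.71, 9.63 and 9.33 in abci20 polysomal RNA, against 8.94, 9.35 and 9.21 in Col-0. Its genotypes overlapped in every fraction, and its changes were 0.39, 0.24 and 0.21 (SE 0.212 each). Neither paralog passed the test, and the difference between them was not tested.

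RPL5, which binds the 5S RNA, and RPL16 belong to the same 5S particle. RPL5A, whose mutants are known as piggyback3 and oligocellula5 for their leaf phenotypes, had 7.94, 8.24 and 7.97 log2 in abci20 monosomal RNA, against 7.85, 7.72 and 7.03 in Col-0. In total RNA it had 7.42, 6.73 and 6.59 in abci20, against 6.94, 7.09 and 7.49 in Col-0, so the genotypes were apart in monosomal RNA and mixed in total RNA. Its fitted changes were 0.31 in polysomal, 0.52 in monosomal and -0.26 in total RNA (adjusted p = 0.986, 0.384 and 0.685). RPL5B had changes of 0.39, 0.47 and 0.17 in the same order, with adjusted p = 0.832, 0.387 and 0.791. RPL16A was the one gene of the 57 with a negative fitted change in every fraction, -0.05, -0.40 and -0.06 (SE 0.333 each, adjusted p = 1.0, 0.657 and 0.958). Its paralog RPL16B had 0.38 and 0.51 in polysomal and monosomal RNA (adjusted p = 0.760 and 0.251) beside the 1.02 in total RNA given above.

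RPL10 joins the large subunit late in its assembly, at the face that meets the small subunit. RPL10A had 10.50, 10.63 and 10.40 log2 in abci20 monosomal RNA, against 10.05, 10.33 and 10.27 in Col-0. RPL10C had 10.25, 10.42 and 10.14 in abci20, against 9.92, 9.87 and 9.48 in Col-0. RPL10B had 3.77, 5.08 and 4.54 in abci20, against 2.95, 3.73 and 3.5 in Col-0. All 3 paralogs were higher without overlap in this fraction, and their fitted changes were 0.30 for RPL10A, 0.52 for RPL10C and 1.07 for RPL10B (SE 0.214, 0.180 and 0.493, adjusted p = 0.580, 0.163 and 0.319). In total RNA the changes were 0.00, 0.03 and 1.22 for RPL10A, RPL10C and RPL10B, and the genotypes overlapped for each of them. RPL10B was the most variable across the study, with group means spread over 2.68 log2.

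RPL23A lies at the rim of the exit tunnel, where factors that handle the new protein dock. RPL23AB had 6.62, 5.85 and 5.06 log2 in abci20 total RNA, against 6.53, 6.09 and 6.88 in Col-0. RPL23AA had 6.61, 5.80 and 5.23 in abci20 total RNA, against 6.15, 5.99 and 6.06 in Col-0. In both paralogs the abci20 arrays spread more widely than the Col-0 arrays and overlapped them. RPL23AB had the lowest change of the family in total RNA, -0.66 (SE 0.325, adjusted p = 0.312), beside 0.37 in polysomal and 0.43 in monosomal RNA. RPL23AA had -0.18 in total, 0.21 in polysomal and 0.64 in monosomal RNA (adjusted p = 0.836, 1.0 and 0.367).

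RPL24 forms a bridge between the subunits, and RPL24B is also known as SHORT VALVE1 for its role in the gynoecium. RPL24A had 6.86, 6.92 and 6.76 log2 in abci20 monosomal RNA, against 6.40, 6.06 and 6.08 in Col-0. In polysomal RNA it had 5.93, 6.20 and 6.04 in abci20, against 5.10, 5.83 and 5.42 in Col-0. In total RNA it had 5.65, 5.81 and 5.29 in abci20, against 4.92, 5.28 and 4.95 in Col-0. The genotypes were thus apart in each fraction, in total RNA by a narrow margin between abci20 replicate 3 and Col-0 replicate 2. The fitted changes were 0.61 in polysomal, 0.66 in monosomal and 0.53 in total RNA (SE 0.216 each, adjusted p = 0.359, 0.131 and 0.199). RPL24B had changes of 0.87, 0.65 and 0.35 (SE 0.244 each, adjusted p = 0.171, 0.206 and 0.509), and its genotypes overlapped in polysomal RNA alone.

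Of the remaining genes with a symbol, PGY1, whose mutants have altered leaf polarity, had changes of 0.74 in polysomal, 0.74 in monosomal and 0.17 in total RNA (adjusted p = 0.251, 0.114 and 0.776). EMB2296, needed for embryo development, had 0.47, 0.59 and 0.69 (adjusted p = 0.501, 0.134 and 0.0616), with no overlap between genotypes in any fraction. The other embryo-defective gene, emb2386, had 0.42, 0.51 and 0.22 (adjusted p = 0.639, 0.232 and 0.656). RPL18 had 0.66, 0.49 and 0.31 (adjusted p = 0.211, 0.240 and 0.453). BBC1, for which the reference table also lists a small-subunit alias, had 0.77, 0.69 and 0.49 (adjusted p = 0.186, 0.122 and 0.254). All of these changes were positive, and 0 passed the threshold.

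**Figure D3:**
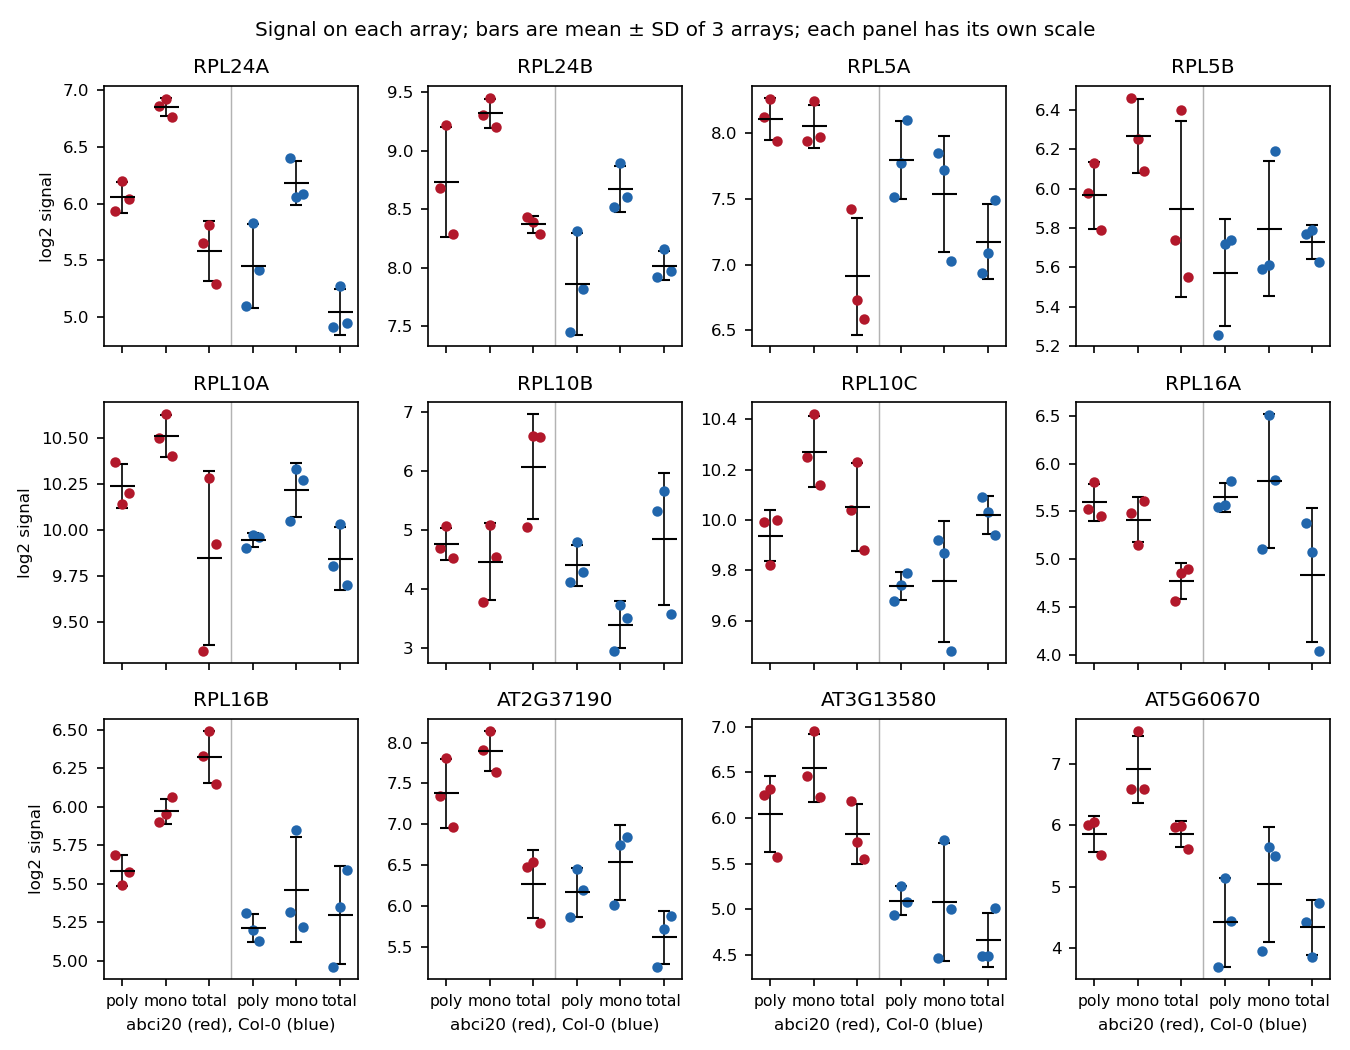
Log2 signal on each array for 12 genes, with abci20 (red) left of Col-0 (blue) in every panel, the fractions in the order polysomal, monosomal and total, and bars for the mean ± SD of 3 arrays; each panel has its own scale. RPL24A peaks in monosomal RNA in both genotypes, at 6.76 to 6.92 in abci20 and 6.06 to 6.40 in Col-0, RPL16B is highest in abci20 total RNA, at 6.15 to 6.49, and RPL10B is lowest in Col-0 monosomal RNA, at 2.95 to 3.73.

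The fraction comparisons asked how much of each message was bound by ribosomes, relative to the other messages of the same fraction. Monosomal over total RNA had a median change of 0.64 over the 57 genes in abci20 and 0.38 in Col-0, beside 0.05 and 0.06 over all probe sets and 0.12 and -0.03 over the brighter probe sets. Polysomal over total RNA had medians of 0.43 in abci20 and 0.28 in Col-0, beside 0.02 and 0.01 over all probe sets but 0.38 and 0.24 over the brighter probe sets. Polysomal over monosomal RNA had medians of -0.24 in abci20 and -0.11 in Col-0, beside -0.11 and -0.13 over all probe sets and 0.19 and 0.23 over the brighter probe sets. With single compared arrays left out, the abci20 medians ran from 0.46 to 0.74 (monosomal over total), 0.31 to 0.56 (polysomal over total) and -0.32 to -0.17 (polysomal over monosomal), and the Col-0 medians from 0.31 to 0.51, 0.15 to 0.37 and -0.23 to 0.00. In Col-0, polysomal over total RNA had a median of 0.16 without polysomal replicate 2 and 0.15 without total replicate 1. Polysomal over monosomal RNA there had 0.00 without polysomal replicate 1, and -0.23 and -0.03 without monosomal replicates 1 and 2. With all arrays, in polysomal over total RNA the family's medians were within 0.05 log2 of those of the brighter probe sets. Of the seed markers, 2 fell in polysomal relative to total RNA in abci20 and 1 in Col-0, and 2 fell relative to monosomal RNA in each genotype; whether they bear on the family's values was not tested. Comparisons within a genotype share arrays, and their values are given side by side.

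In abci20 seeds, 20 of the 57 genes rose in monosomal relative to total RNA and RPL10B fell, where 14.7% of all probe sets passed, 8.15% as higher and 6.58% as lower; the shares were 14.1% and 9.16% within the brighter probe sets. Without overlap, 27 genes were higher on every monosomal array, beside 14.8% of all probe sets, and 1 was lower, beside 10.4%. RPL24A had 6.86, 6.92 and 6.76 log2 in monosomal RNA, against 5.65, 5.81 and 5.29 in total RNA. AT2G37190 had 7.91, 8.14 and 7.64 in monosomal RNA, against 6.48, 6.54 and 5.79 in total RNA. In both, every monosomal array lay above every total array. The fitted changes were 1.26 (SE 0.216, adjusted p = 0.00114) for RPL24A and 1.63 (SE 0.294, 3.09-fold, adjusted p = 0.00171) for AT2G37190, the largest of the family.

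AT5G48760 and AT5G47700 were also among the 4 genes with the smallest p in that comparison. AT5G48760 had 8.56, 8.54 and 8.56 log2 in monosomal RNA, against 7.34, 7.66 and 7.17 in total RNA, a change of 1.17 (SE 0.205, adjusted p = 0.00143). AT5G47700 had 6.35, 6.42 and 6.29 in monosomal RNA, against 5.20, 5.56 and 4.99 in total RNA, a change of 1.11 (SE 0.202, adjusted p = 0.00181). The monosomal replicates of both genes lay close together and far from the total arrays. RPL5A (1.14), RPL10A (0.66), PGY1 (0.84), RPL18 (0.84), RPL23AA (1.47), RPL23AB (1.40) and RPL24B (0.95) also rose, with adjusted p from 0.00606 to 0.0461. RPL10B had 3.77, 5.08 and 4.54 in monosomal RNA, against 5.05, 6.59 and 6.58 in total RNA, and fell by 1.61 (SE 0.493, adjusted p = 0.0372), with total replicate 1 inside the monosomal range. The count of 21 genes became 29 and 11 when abci20 total replicates 1 and 3 were left out one at a time, and 14 and 13 when abci20 monosomal replicates 1 and 2 were. It was 39 with each array centred on its median, where all probe sets moved to a median of 0.35, and 1 in a fit of the 6 compared arrays alone. Shares of all probe sets that passed under these settings are not given here, so these counts show only how the calls moved.

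In Col-0 seeds, RPL24A, AT5G47700 and AT3G62870 rose in monosomal relative to total RNA, 3 of the 57 against 3.20% of all probe sets, and 0 fell, against 3.45% (6.65% in either direction). Within the brighter probe sets the shares were 4.72% higher and 6.22% lower. RPL24A had 6.40, 6.06 and 6.08 log2 in monosomal RNA, against 4.92, 5.28 and 4.95 in total RNA. AT5G47700 had 6.23, 5.81 and 5.82 in monosomal RNA, against 5.0, 5.11 and 5.41 in total RNA. AT3G62870 had 6.51, 6.54 and 6.69 in monosomal RNA, against 5.69, 6.07 and 5.46 in total RNA. The fractions did not overlap for any of the 3, whose changes were 1.13 (adjusted p = 0.00510), 0.78 (adjusted p = 0.0289) and 0.84 (adjusted p = 0.0415). Without overlap, 24 genes were higher in monosomal RNA, beside 15.5% of all probe sets. The count of 3 was 8 without abci20 total replicate 1 in the shared spread, 5 without Col-0 monosomal replicate 1, 1 without Col-0 total replicate 1 and 1 in a fit of the compared arrays alone. It was 9 with each array centred on its median, where all probe sets had a median of 0.20. These refit counts are given without the shares of all probe sets that passed, and show only how the calls moved.

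In polysomal relative to total RNA of abci20 seeds, 12 genes rose and RPL16B fell, where 22.1% of all probe sets passed, 11.9% as higher and 10.2% as lower; the shares were 22.8% and 7.93% within the brighter probe sets. Without overlap, 18 genes were higher on every polysomal array, near the 19.4% of all probe sets, and 1 was lower, beside 15.9%. RPL5A had 8.12, 8.26 and 7.94 log2 in polysomal RNA, against 7.42, 6.73 and 6.59 in total RNA, a change of 1.19 (SE 0.264, adjusted p = 0.00585). AT3G07110 had 8.40, 8.23 and 8.28 in polysomal RNA, against 7.40, 7.74 and 6.76 in total RNA, a change of 1.0 (SE 0.258, adjusted p = 0.0126). AT2G37190, at 1.10 (adjusted p = 0.0147), and RPL18, at 0.72 (adjusted p = 0.0161), followed. All 4 were higher on every polysomal array, and RPL5A passed whichever compared array was left out, with adjusted p from 0.000750 to 0.0278. RPL16B went the other way, with 5.69, 5.49 and 5.58 in polysomal RNA, against 6.33, 6.49 and 6.15 in total RNA, and fell by 0.74 (SE 0.208, adjusted p = 0.0199).

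Those counts depended on the scaling. Quantile normalization left 1 gene higher and 1 lower, with a median of 0.18 beside 0.08 over all probe sets, and centring on the array median gave 31 higher and 0 lower, with a median of 0.76 beside 0.34. The 13 genes became 4, 3 and 8 without abci20 polysomal replicates 1, 2 and 3, 21 and 3 when abci20 total replicates 1 and 3 were left out singly, and 1 in a fit of the compared arrays alone. Shares of all probe sets that passed under these settings are not given here, so the counts show only how the calls moved.

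In polysomal relative to total RNA of Col-0 seeds, 3 genes rose, against 4.06% of all probe sets, and 0 fell, against 3.07% (7.13% in either direction). Within the brighter probe sets the shares were 7.81% higher, above the family's 5.26%, and 3.31% lower. Without overlap, 13 were higher, beside 20.4% of all probe sets, and 1 was lower, beside 14.5%. AT4G16720 lay between 9.88 and 10.18 log2 on the polysomal arrays, against 8.88, 9.18 and 9.17 in total RNA, a change of 0.94 (SE 0.197, adjusted p = 0.0114). EMB2296 had 8.93, 9.20 and 9.43 in polysomal RNA, against 8.17, 8.39 and 8.54 in total RNA, a change of 0.82 (adjusted p = 0.0203). AT3G62870 had 6.53, 6.66 and 6.58 in polysomal RNA, against 5.69, 6.07 and 5.46 in total RNA, a change of 0.85 (adjusted p = 0.0387). The fractions did not overlap for these 3. Under quantile normalization 1 gene passed and the family's median was 0.03, below the 0.04 of all probe sets; centred on the array median 7 passed, with a median of 0.49 beside 0.22. Leaving out Col-0 polysomal replicate 3 left 0, and leaving out Col-0 polysomal replicate 2 or Col-0 total replicate 1 left 1, whereas 6 passed without abci20 total replicate 1 in the shared spread. Counts under these settings are given without the shares of all probe sets that passed, and show only how the calls moved.

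In polysomal relative to monosomal RNA, 3.51% of the 57 genes passed as lower in each genotype, near the share of all probe sets. In abci20 seeds 2 genes fell, against 3.45% of all probe sets, and 0 rose, against 7.31%. Within the brighter probe sets the shares were 4.94% lower and 14.3% higher. AT3G11250 had 7.41, 7.11 and 7.18 log2 in polysomal RNA, against 8.01, 8.37 and 8.16 in monosomal RNA, a change of -0.95 (SE 0.231, adjusted p = 0.0139). RPL24A had 5.93, 6.20 and 6.04 in polysomal RNA, against 6.86, 6.92 and 6.76 in monosomal RNA, a change of -0.79 (SE 0.216, adjusted p = 0.0256). Every polysomal array lay below every monosomal array for both, as for 17 of the 57 genes, beside 19.5% of all probe sets. In Col-0 seeds the 2 genes that fell were both RPL24 paralogs, against 4.25% of all probe sets lower, and 0 rose, against 8.20%. The shares within the brighter probe sets were 4.25% lower and 16.0% higher. RPL24A had 5.10, 5.83 and 5.42 in polysomal RNA, against 6.40, 6.06 and 6.08 in monosomal RNA, a change of -0.73 (adjusted p = 0.0340). RPL24B had 7.45, 8.31 and 7.82 in polysomal RNA, against 8.52, 8.89 and 8.60 in monosomal RNA, a change of -0.81 (adjusted p = 0.0378). Both were lower without overlap, as were 9 of the 57 genes, beside 20.0% of all probe sets, and the abci20 change of RPL24B was -0.59.

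The abci20 count of 2 fell to 0 without abci20 monosomal replicate 2 or abci20 polysomal replicate 3, to 1 without abci20 monosomal replicate 1 or abci20 polysomal replicates 1 or 2, and was 4 in a fit of the compared arrays alone. The Col-0 count fell to 0 without Col-0 monosomal replicates 1 or 3 or Col-0 polysomal replicates 1 or 3, to 1 without Col-0 monosomal replicate 2, and to 0 with each array centred on its median. In a fit of the compared arrays alone, 1 other gene passed, as higher. Both sets of counts are given without the shares of all probe sets that passed, and show only how the calls moved.

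**Figure D4:**
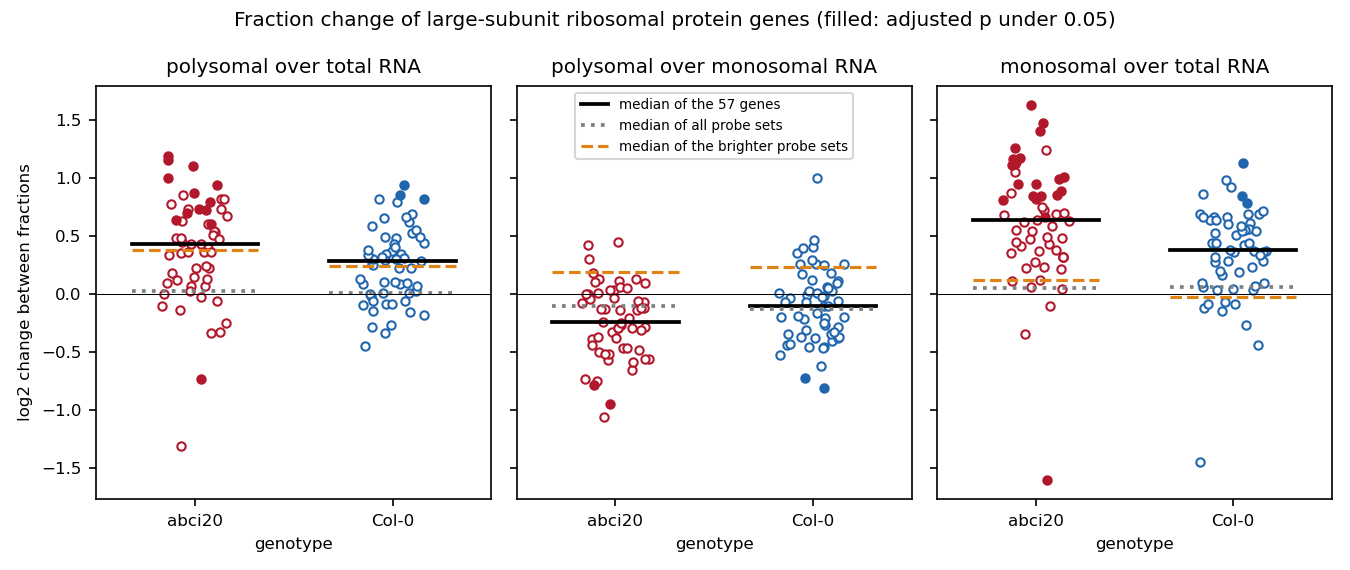
Fitted log2 change between RNA fractions for each of the 57 genes (points, filled where the adjusted p was under 0.05) in abci20 and Col-0, with the medians of the 57 genes, of all probe sets and of the brighter probe sets. In monosomal over total RNA the black median line, at 0.64 in abci20 and 0.38 in Col-0, lies above both background lines, and in polysomal over total RNA it lies near that of the brighter probe sets.

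Whether the fraction changes differed between genotypes was tested as the abci20 change minus the Col-0 change. In limma 0 of the 57 genes passed for any of the 3 fraction pairs, as did 0 of all probe sets (0.00%). At an unadjusted p under 0.05 there were 2 genes for polysomal over total, 0 for polysomal over monosomal and 2 for monosomal over total RNA, against 4.54%, 2.67% and 8.16% of all probe sets. RPL23AB had the smallest p for polysomal over total RNA, 1.03 (SE 0.459, adjusted p = 0.999), from changes of 1.15 in abci20 and 0.13 in Col-0. AT4G13170 had the smallest p for monosomal over total RNA, 1.10 (SE 0.422, adjusted p = 0.541), from changes of 0.95 in abci20 and -0.15 in Col-0. AT5G48760 had the smallest p for polysomal over monosomal RNA, -0.49 (SE 0.290, adjusted p = 1.0). The median of the family was 0.18, -0.13 and 0.30 for polysomal over total, polysomal over monosomal and monosomal over total RNA, beside 0.02, 0.01 and 0.01 over all probe sets and 0.10, -0.05 and 0.15 over the brighter probe sets. These medians moved widely with single arrays. They ran from 0.01 (without abci20 total replicate 3) to 0.29 (without abci20 polysomal replicate 3) for polysomal over total RNA, and from -0.24 (without abci20 monosomal replicate 3) to -0.03 (without abci20 polysomal replicate 3 or Col-0 polysomal replicate 2) for polysomal over monosomal RNA. For monosomal over total RNA they ran from 0.17 (without abci20 monosomal replicate 2 or abci20 total replicate 3) to 0.39 (without abci20 monosomal replicate 3). A difference between genotypes in the number of genes past the threshold is therefore not a tested difference in their fraction changes.

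Other genes of the translation machinery were counted in the same fits. Between genotypes in polysomal RNA, 0 of 78 other large-subunit genes, 0 of 88 small-subunit genes, 0 of 14 elongation factor genes and 0 of 24 ribosome assembly genes passed, with medians of 0.30, 0.36, 0.24 and 0.40. In monosomal RNA 4, 1, 1 and 3 of these lists rose and 0 fell, with medians of 0.54, 0.45, 0.31 and 0.45. In total RNA 3, 4, 0 and 3 rose and 0 fell, with medians of 0.23, 0.36, 0.29 and 0.21. Over all probe sets, 0.234% passed as higher in polysomal, 1.09% in monosomal and 1.11% in total RNA. The medians of all 4 lists were positive in every fraction, like that of the 57 genes. Among the genes that rose were FIB2 and NAP57, which belong to the particles that methylate and pseudouridylate ribosomal RNA. FIB2 rose by 1.74 in monosomal RNA (adjusted p = 0.0113) and 1.52 in total RNA (adjusted p = 0.0153), and NAP57 rose by 1.48 in monosomal RNA (adjusted p = 0.0165).

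The fraction changes were counted over the same lists. Over all probe sets, monosomal over total RNA passed as higher and lower for 8.15% and 6.58% in abci20. In Col-0 these shares were 3.20% and 3.45%. For polysomal over total RNA they were 11.9% and 10.2% in abci20 and 4.06% and 3.07% in Col-0. For polysomal over monosomal RNA they were 7.31% and 3.45% in abci20 and 8.20% and 4.25% in Col-0. In monosomal over total RNA of abci20, 38 of the 78 other large-subunit genes rose and 0 fell (median 0.77), and 31 of the 88 small-subunit genes rose and 3 fell (median 0.58). In Col-0, 12 of the large-subunit genes rose and 0 fell (median 0.52), and 11 of the small-subunit genes rose and 2 fell (median 0.50). Of the elongation factors 2 rose in abci20 and 0 in Col-0, and of the assembly genes 2 and 0, with 0 lower in either list. In polysomal over total RNA, 7 other large-subunit genes rose and 2 fell in abci20 and 1 rose and 0 fell in Col-0, and for the small subunit 18 rose and 3 fell in abci20 and 7 rose and 2 fell in Col-0. There, 4 elongation factors rose in abci20 and 1 in Col-0, with 0 lower, and 9 assembly genes rose and 1 fell in abci20 and 1 rose and 0 fell in Col-0. In polysomal over monosomal RNA, 16 other large-subunit genes fell in abci20 and 7 in Col-0, with 0 higher, as did 3 and 1 of the small subunit. For elongation factors 2 rose in abci20 and 1 in Col-0, with 0 lower, among them LOS1, the translocation factor eEF2, at 0.96 in abci20 and 1.09 in Col-0 (adjusted p = 0.0135 and 0.00575). Of the assembly genes 1 rose and 1 fell in abci20, and 0 passed in Col-0. For the genotype difference of each fraction change, 0 genes of any of these lists passed.

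One of the 57 genes, AT3G51190, was dim everywhere, with 2.06, 1.64 and 1.45 log2 in abci20 polysomal RNA, against 2.19, 2.41 and 1.62 in Col-0. Its highest group mean, 2.08, was the only one of the family under the median of that value over all probe sets, 3.93. Its genotype changes were -0.36 in polysomal, -0.21 in monosomal and 0.42 in total RNA, with overlapping arrays throughout. With RPL16A it accounts for the genes with a negative change in polysomal and in monosomal RNA.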

How the data were processed

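The authors summarized the arrays with RMA, per the submitters' processing notes, and deposited log2 signals for 27827 probe sets on 18 arrays, from 0.301 to 12.71. The RMA version, the array build, how the ribosome fractions were separated and whether the arrays were processed together are not given in the sources used here. Arrays were grouped by genotype and RNA fraction.

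All arrays were fitted in limma 3.58.1 (R 4.3.3; lmFit and eBayes, 1 coefficient per group, 12 residual degrees of freedom), with no intensity filter. Tests were two-sided, with Benjamini-Hochberg adjustment at 0.05 across every probe set in each comparison, for 12 comparisons: genotype in 3 fractions, fraction pairs in each genotype and their genotype differences. Figures used matplotlib 3.10.9 in Python 3.11.15. The fit was also run on simulated data with independent noise on each array, as a check of the code alone. That run does not bear on how reliable the calls above are.

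The genes, lists, tests and alternatives were chosen with earlier results of these data known. Genes were named from a reference table (TAIR10.1) that holds 27241 of the loci; its coordinates were not used. Every member could be named. Full statistics went to up to 4 higher and 4 lower members past the threshold with the smallest p per comparison. Where none passed, they went to the member with the smallest p. Values of other members are given for the 18 genes with a symbol and for AT3G51190. Up to 2 genes in each direction could be named from the other large-subunit, small-subunit, elongation factor and ribosome assembly lists; 1 listed gene with another name in the table and 4 not measured (1 of the large subunit, 3 of the small) were left out. Seed and leaf lists served as markers.

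Alternatives were a replicate block, only the compared groups, quantile normalization, centring on the array median, brighter probe sets only and leaving out each compared array. Added after seeing the data were leaving out abci20 total replicate 1 where it was not compared, and the brighter probe sets as a background for medians. Planned searches of promoters and proteins and a grouping by role were not run, and no sequence is given here.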

Additional observations from a re-analysis of the deposited data

How the results depend on the processing

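Of the counts under an alternative setting, 102 stayed within 1.5 times the reported count and 55 did not. Counts of 0 that remained 0, as for the 3 genotype differences, are among the 102. The tally therefore does not measure how stable the other counts were. Of the medians, 153 moved by less than 0.227 log2, the pooled SD between replicate arrays of the family's median level, and 4 by more. Several medians were themselves smaller than that, so one that fell to 0 could still count as unmoved. Of the named genes' tests, 272 kept their side of the threshold, 101 fell below it, 2 rose above it and 0 reversed. With only the compared groups fitted, genotype counts were 0 in total, 3 in polysomal and 0 in monosomal RNA; in abci20 they were 1 for polysomal over total, 4 for polysomal over monosomal and 1 for monosomal over total RNA, and in Col-0 1 for polysomal over monosomal and 1 for monosomal over total RNA. Quantile normalization gave 8 for genotype in total RNA, 2 in abci20 and 1 in Col-0 for polysomal over total RNA. Centring on the array median gave 31 (polysomal over total) and 39 (monosomal over total) in abci20, and 7, 0 and 9 (polysomal over total, polysomal over monosomal, monosomal over total) in Col-0. Among the brighter probe sets, which kept 56 of the 57 genes and adjusted over fewer tests, counts (and the share of those probe sets that passed) were 9 (12.2%, total), 2 (1.90%, polysomal) and 17 (7.81%, monosomal) between genotypes, 4 (26%) for polysomal over monosomal RNA in abci20, and 5 (18.2%, polysomal over total) and 10 (16.4%, monosomal over total) in Col-0. The labels give a randomized block layout but do not say that equal replicate numbers mark the same block, and of 45 residual correlations between same-numbered arrays 9 exceeded 0.1 (-0.166 to 0.245), with all 3 over 0.1 in 0 of 15 pairs of groups and 8 of 18 arrays correlating best with their own number. With the replicate number as a block, counts were 7 against 4 between genotypes in monosomal RNA and 6 (5 higher and 1 lower) against 3 for monosomal over total RNA in Col-0, and no other moved by over 1.5 times. Without abci20 total replicate 1, counts of comparisons that do not hold it were 9 (genotype, monosomal), 6 and 8 (polysomal and monosomal over total in Col-0). Leaving out each compared array gave ranges of 1 to 5 (total), 0 to 0 (polysomal) and 0 to 6 (monosomal) between genotypes; 3 to 21, 0 to 2 and 11 to 29 for polysomal over total, polysomal over monosomal and monosomal over total RNA in abci20; and 0 to 2, 0 to 2 and 1 to 5 in Col-0. Of 27 named calls, 7 passed whichever compared array was left out and 20 did not. The 3 genotype differences gave 0 throughout. Apart from fewer samples or tests by construction, the cause of these shifts was not tested. Except among the brighter probe sets, the counts here are given without the share of all probe sets that passed under the same setting. They show how the calls moved with the setting and are not a result about the family. The median standard error of a difference between 2 groups was 0.255 log2 for the 57 genes and 0.291 for all probe sets, which limits the changes that could pass.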
